A study of Mus musculus with 8 samples.

Results

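The circadian clock genes were followed in ileum, the distal small intestine, of mice with and without induction of the kinase TNK1. They are 10 genes chosen by name: Arntl, Clock, Npas2, Per1, Per2, Per3, Cry1, Nr1d1, Nr1d2 and Dbp. On the array 13 probes that are not controls carry these names, out of 55681 probes and 35715 gene names in all. A probe was kept where at least 4 of the 8 arrays read it well above background (the scanner software's own call), and by that filter 11 of the 13 probes and 9 of the 10 genes were tested, among 21362 tested genes. Per3 was the gene that was not tested, and the second Per1 probe was left out too.

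One group held 4 arrays of ileum from female mice of the strain Rosa26rtTA/+, Hprt Myc-Tnk1tg that received doxycycline by intraperitoneal injection, 50 µg per g of body weight in 100 µl. The controls were 4 arrays from female mice given 100 µl of 0.9% NaCl. In both groups the tissue was examined 24 hours after the injection. The treatment description and the strain label give the controls the same transgenic strain, whereas their titles and source names call them WT. rtTA is a transcription activator that works in the presence of doxycycline, and the Myc-tagged Tnk1 transgene lies at the X-linked Hprt locus. No group received doxycycline without the transgene, so an effect of the drug and an effect of TNK1 cannot be told apart. If the controls were WT, as their titles say, a difference of genotype could not be told apart from treatment either. The labels give neither an age nor the hour of the day at which tissue was taken. Each array holds total RNA of ileum. The labels do not state that every array is a separate animal, so the p-values cover the spread among these arrays only, which may be technical.

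In the mammalian clock, the proteins of Arntl (BMAL1) and Clock pair up and switch on genes through E-box sequences. Period and cryptochrome proteins, made from Per and Cry genes, come back to inhibit that pair, and the nuclear receptors of Nr1d1 and Nr1d2 (REV-ERB alpha and beta) repress Arntl. Most cells of the body, those of the gut included, carry this loop, and in mouse tissues Arntl and Npas2 usually peak at the opposite time of day to Nr1d1 and Dbp. Levels of these transcripts therefore depend on the hour of collection as well as on treatment.

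Some facts of the whole series bear on every value. Signal on the Tnk1 probe toward the 5′ side of the gene was 0.64 ± 0.23 in doxycycline ilea, against -2.15 ± 0.40 in saline ilea (SD, n = 4 each; limma adjusted p = 4.16e-04 in the fit over all kept probes). These are levels on the scale used throughout, log2 intensity less the 75th percentile of the same array. A second Tnk1 probe, nearer the 3′ end of the gene, did not pass the test and read 2.13 ± 0.23 with doxycycline and 2.58 ± 0.26 with saline (adjusted p = 0.143). The Hprt probe read 4.34 ± 0.14 with doxycycline and -1.67 ± 0.58 with saline (adjusted p = 5.55e-05). More probes were well above background with doxycycline (30485 to 31713 per array) than with saline (22069 to 23994). A single slide carried the 8 arrays, with doxycycline samples in row 1 and saline samples in row 2. Slide row and treatment thus cannot be told apart. The summed level of 12 enterocyte genes, relative to the 75th percentile, was 899 to 1320 in doxycycline ilea and 716 to 1177 in saline ilea. Of these, Apoa4 was well above background on 4 doxycycline and 3 saline arrays, and Lct on 4 doxycycline arrays and 1 saline array. Lct read 3.06 on saline 3, against -5.25 to -3.92 on the other saline arrays. Saline 4 stood apart as the only array with albumin (Alb, a liver gene) well above background. Alb read -7.03 to -5.04 on the doxycycline arrays and -5.12 to -4.66 on the other 3 saline arrays. Myh6, a heart gene, was not well above background on any array, whereas the dim signal of Ins2, an insulin gene, was on all 8.

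Per1 was higher in every doxycycline ileum than in any saline ileum, and it was the only 1 of the 9 tested clock genes to pass the threshold of adjusted p 0.05. Over all 21362 genes tested, 13.8% passed the threshold in either direction, 5.94% as higher and 7.9% as lower. A count of 1 in 9 is thus close to the background of this comparison. No clock gene was lower by limma's test. An unadjusted limma p under 0.05 was found for 2 of the 9 (Per1 and Cry1) and for 6701 of all 21362 genes tested. The groups did not overlap for Per1 alone among the 9, against 21.9% of all genes tested (8.83% as higher with doxycycline). The median log2 difference, doxycycline minus saline, was 0.15 over the 9 clock genes and 0.016 over all genes.

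**Figure D1:**
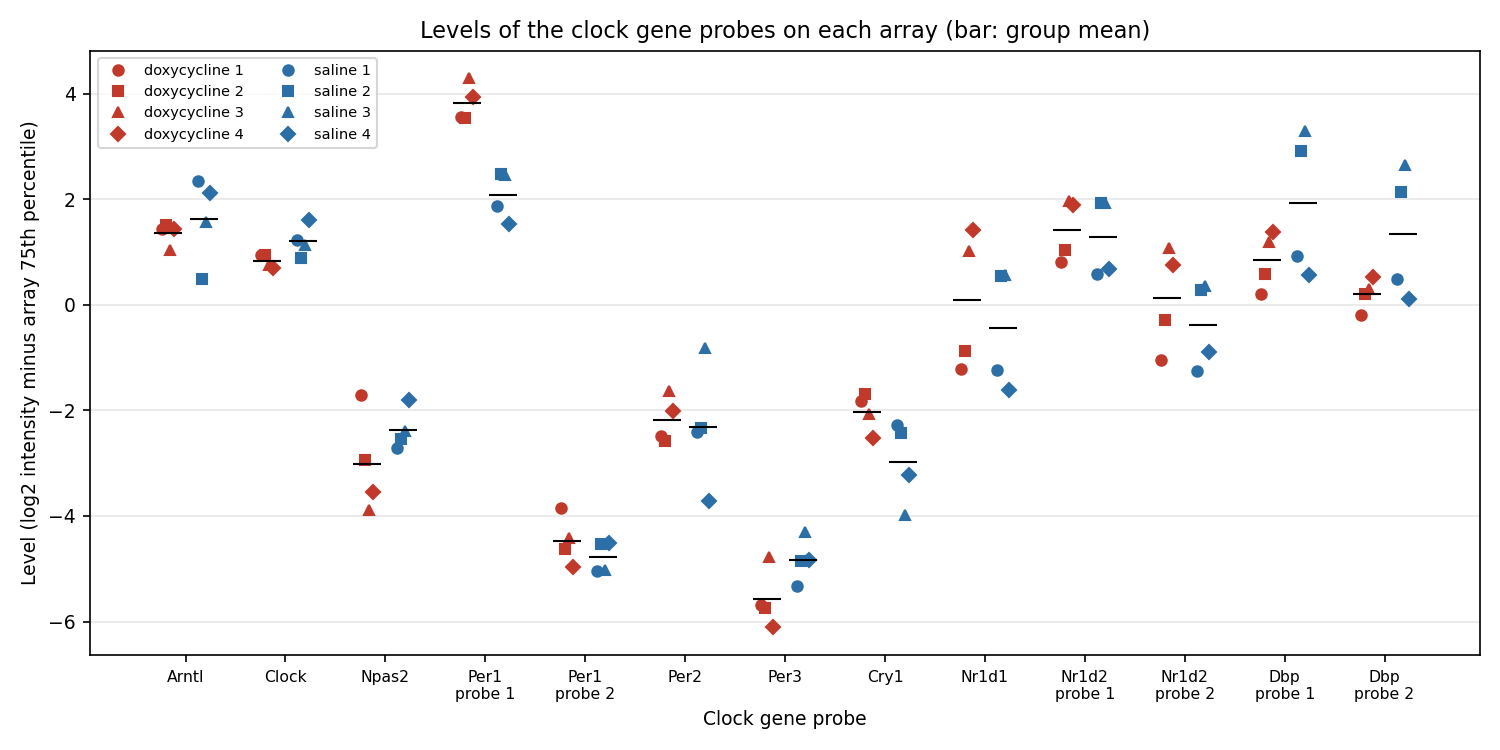
Level of each of the 13 clock gene probes (log2 intensity minus the array's 75th percentile) on the 4 doxycycline and 4 saline arrays, with a marker shape for each replicate and a bar at each group mean. The doxycycline values of the first Per1 probe, 3.54 to 4.29, lie above its saline values, 1.54 to 2.47, whereas the groups overlap on the other probes.

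The activators of the loop showed no difference that passed the test. Arntl, the partner of both Clock and Npas2, read 1.43, 1.52, 1.05 and 1.44 in doxycycline ilea and 2.35, 0.48, 1.56 and 2.11 in saline ilea. The doxycycline values lay close together, inside the wide range of the saline values, which was set by a high saline 1 and a low saline 2. The log2 difference was -0.27 (SE 0.37, 95% interval -1.11 to 0.58, limma adjusted p = 0.665). Without saline 2 it was -0.65 (adjusted p = 0.0986), and without saline 1 it was -0.024 (adjusted p = 0.975).

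Clock itself read 0.94, 0.95, 0.75 and 0.69 in doxycycline ilea and 1.23, 0.88, 1.13 and 1.60 in saline ilea. Saline 2 was the only saline array inside the doxycycline range. Doxycycline minus saline gave -0.38 (SE 0.18, 95% interval -0.79 to 0.03, limma adjusted p = 0.187). Clock also had the smallest spread between arrays of a group among the 9 tested genes.

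Npas2, which can stand in for Clock as the partner of BMAL1, read -1.70, -2.93, -3.89 and -3.55 in doxycycline ilea and -2.72, -2.55, -2.40 and -1.81 in saline ilea. Doxycycline 1 was the highest of all 8 arrays, and doxycycline 3 and 4 were the lowest. The mean log2 difference came to -0.65 (SE 0.44, 95% interval -1.65 to 0.35, limma adjusted p = 0.352). Without doxycycline 1 it was -1.09 and passed the threshold as lower (adjusted p = 0.0457), and with a common floor on dim values it was -0.023.

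Among the inhibitors of the loop, Per1 stood out. Its product is a period protein, and Per1 is known as an immediate target of glucocorticoid and cAMP signalling besides the clock. The probe at chr11:68923364-68923423 (mm9, the array's build) read 3.55, 3.54, 4.29 and 3.94 in doxycycline ilea, against 1.86, 2.47, 2.47 and 1.54 in saline ilea. The lowest doxycycline value lay above the highest saline value. The means were 3.83 ± 0.36 and 2.08 ± 0.46 (SD, n = 4 each), a 3.36-fold rise (95% interval 2.20 to 5.12, SE 0.27 on the log2 scale). The limma adjusted p was 0.00452, and the exact two-sided permutation p was 0.0286, the smallest that 4 against 4 can give. The rise held its call when any single array was left out, with a log2 difference between 1.57 (without saline 4) and 1.88 (without saline 2).

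A second Per1 probe lies upstream of the first, at chr11:68919895-68919954. It read -3.86, -4.62, -4.43 and -4.97 in doxycycline ilea and -5.04, -4.54, -5.02 and -4.51 in saline ilea. The scanner software called it well above background on 3 doxycycline arrays and 0 saline arrays. The groups overlapped, and no fold is given because the signal lay below the lowest saline signal that counts as well above background. The first 30 of the 60 bases of both probes are shown because the Per1 result rests on only 1 of them.
Per1 first probe: gtgttctcagctctaccctctaccaatgac
Per1 second probe: ttagtgtttcagggcagtagaggtggccgg

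Per2, the closest relative of Per1 in the core loop, read -2.48, -2.58, -1.63 and -2.01 in doxycycline ilea and -2.42, -2.32, -0.81 and -3.72 in saline ilea. The saline values spanned the doxycycline values on both sides, with saline 3 the highest and saline 4 the lowest of all 8 arrays. The log2 difference was 0.15 (SE 0.53, 95% interval -1.06 to 1.35, limma adjusted p = 0.882), and its sign depended on the setting. All 4 doxycycline arrays but only 3 saline arrays read the probe well above background.

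Per3 was not well above background on any of the 8 arrays. Its values were -5.68, -5.75, -4.77 and -6.11 in doxycycline ilea and -5.32, -4.85, -4.30 and -4.84 in saline ilea, and they carry no fold because both groups were below the detection limit.

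Cry1, a cryptochrome and strong inhibitor of the CLOCK and BMAL1 pair, read -1.82, -1.69, -2.07 and -2.53 in doxycycline ilea and -2.27, -2.43, -3.98 and -3.22 in saline ilea. Doxycycline 4 fell inside the saline range, and the other 3 doxycycline arrays lay above it. The log2 difference was 0.95 (SE 0.38, 95% interval 0.09 to 1.80), with an unadjusted limma p of 0.0331 and an adjusted p of 0.124. All 4 doxycycline arrays but only 1 saline array read the probe well above background. With normexp background, which adds an offset of 50 to intensities and so narrows log2 differences of dim spots, the difference was 0.029.

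The REV-ERB genes varied more between arrays of a group than between the groups. Nr1d1 read -1.22, -0.87, 1.02 and 1.43 in doxycycline ilea and -1.24, 0.55, 0.57 and -1.61 in saline ilea. Doxycycline 3 and 4 and saline 2 and 3 were high, and the remaining 2 arrays of each group were low, so that the groups overlapped over most of their range. The fitted log2 difference was 0.52 (SE 0.73, 95% interval -1.13 to 2.18, limma adjusted p = 0.665). The array design gives this probe no genome position.

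Nr1d2 had 2 probes, and both put the same arrays high and low. The brighter probe read 0.81, 1.03, 1.97 and 1.89 in doxycycline ilea and 0.58, 1.93, 1.92 and 0.69 in saline ilea, a log2 difference of 0.15 (SE 0.41, 95% interval -0.78 to 1.07, limma adjusted p = 0.841). The dimmer probe read -1.05, -0.29, 1.08 and 0.76 in doxycycline ilea and -1.26, 0.28, 0.35 and -0.88 in saline ilea, a difference of 0.50 (SE 0.53, adjusted p = 0.563 in the fit over all kept probes). The dimmer probe lies at chr14:19037253-19037312 (mm9), on the chromosome where RefSeq places Nr1d2. The brighter probe is mapped by the array design to chromosome 19 (chr19:40271435-40271494), so which transcript it measures is uncertain. The first 30 bases of the 2 probes show that they are different sequences.
Nr1d2 brighter probe: ctgtgaggggagctcagatagatgtatctt
Nr1d2 dimmer probe: ccagaactgttagtattgcttgtgatgctt

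Dbp, a PAR bZIP transcription factor that passes clock rhythm on to other genes, was the clock output in the set. Its brighter probe, at chr7:52965322-52965381 (mm9), read 0.21, 0.58, 1.19 and 1.38 in doxycycline ilea and 0.93, 2.91, 3.30 and 0.57 in saline ilea. Saline 2 and 3 lay far above all other arrays, and saline 1 and 4 lay among the doxycycline values. Between the group means the log2 difference was -1.09 (SE 0.62, 95% interval -2.48 to 0.31, limma adjusted p = 0.263). The second probe, at chr7:52965461-52965520, gave -1.14 (SE 0.53, adjusted p = 0.183 in the fit over all kept probes). Without saline 3 the difference of the brighter probe was -0.63 (adjusted p = 0.524), and without saline 4 it was -1.54 (adjusted p = 0.110).

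**Figure D2:**
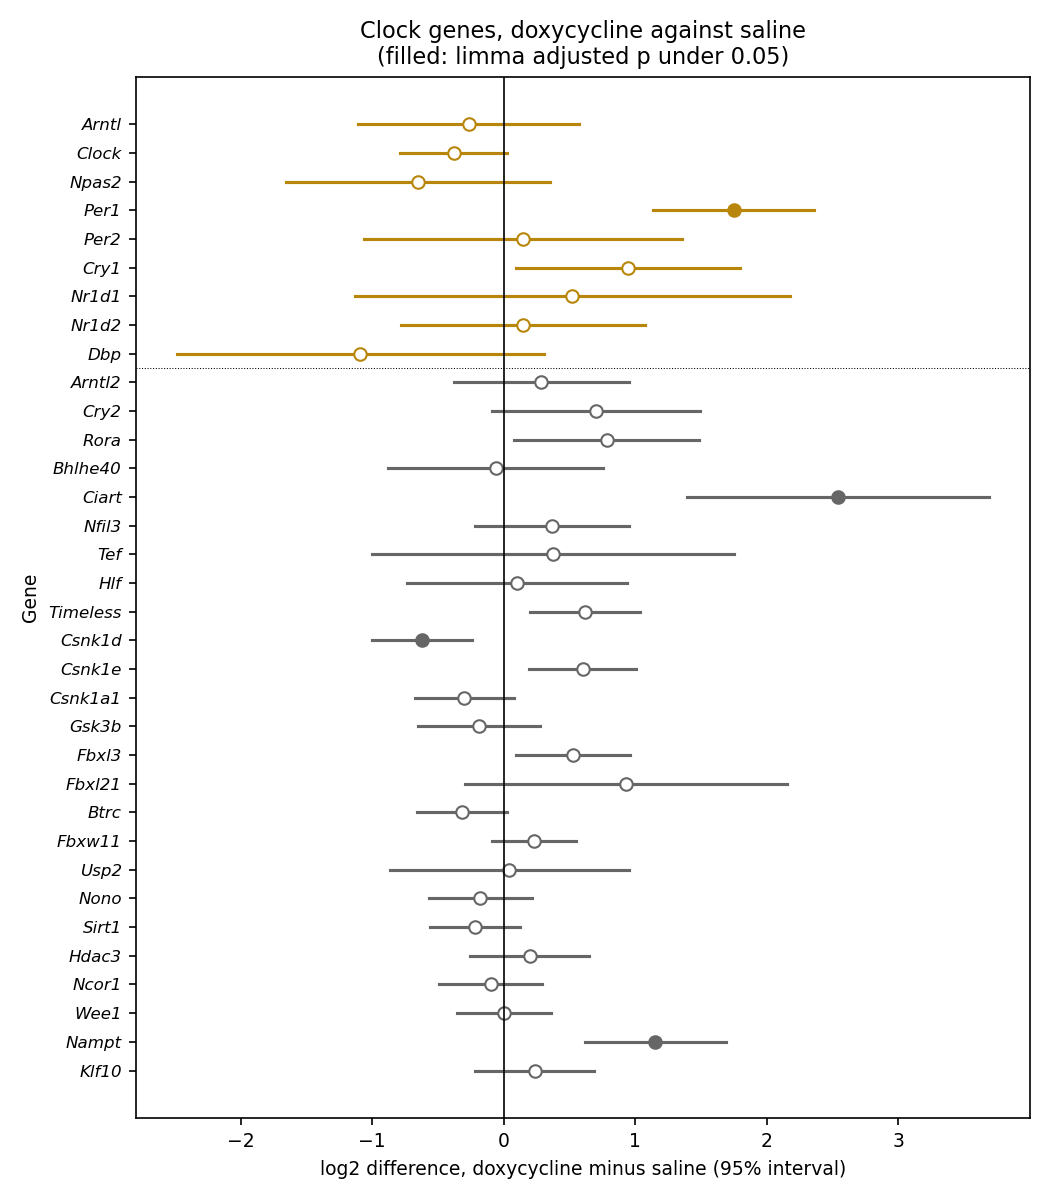
Log2 difference, doxycycline minus saline, with its 95% interval for the 9 tested clock genes (gold, above the dotted line) and the other tested genes of the clock reported here (grey); filled points passed limma's adjusted p of 0.05. Per1 is the filled point among the 9 at 1.75, Ciart is drawn at its fitted value although its saline values were not above background, and the intervals of Nr1d1, Dbp and Per2 span over 2 log2 units.

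The spread between arrays of a group was wide for most of the clock genes. The within-group SD, pooled over both groups, was 1.24 log2 units for Nr1d1, a value as large as or larger than that of 98.3% of all genes with complete values. It was 1.04 for Dbp (percentile 97.0), 0.90 for Per2 (95.2), 0.74 for Npas2 (91.3) and 0.67 for the brighter Nr1d2 probe (88.9), whose transcript is uncertain. Cry1 and Arntl followed with 0.62 (86.0) and 0.61 (85.4). Per1, at 0.41 (66.9), and Clock, at 0.23 (27.0), were the least variable. The SD exceeded the median of all genes, 0.32, for 8 of the 9. Npas2, Per2 and Cry1 were dim, and the percentiles compare genes of all signal levels. With normexp background, the SE of their group difference was 0.23, 0.25 and 0.14, against 0.44, 0.53 and 0.38 in the main fit. The normexp offset of 50 narrows the log2 spread of dim probes by construction, so these SEs cannot size the part of low signal. That part in the spread of Npas2, Per2 and Cry1 was not tested. The SDs and percentiles describe the arrays and are not a test.

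**Figure D3:**
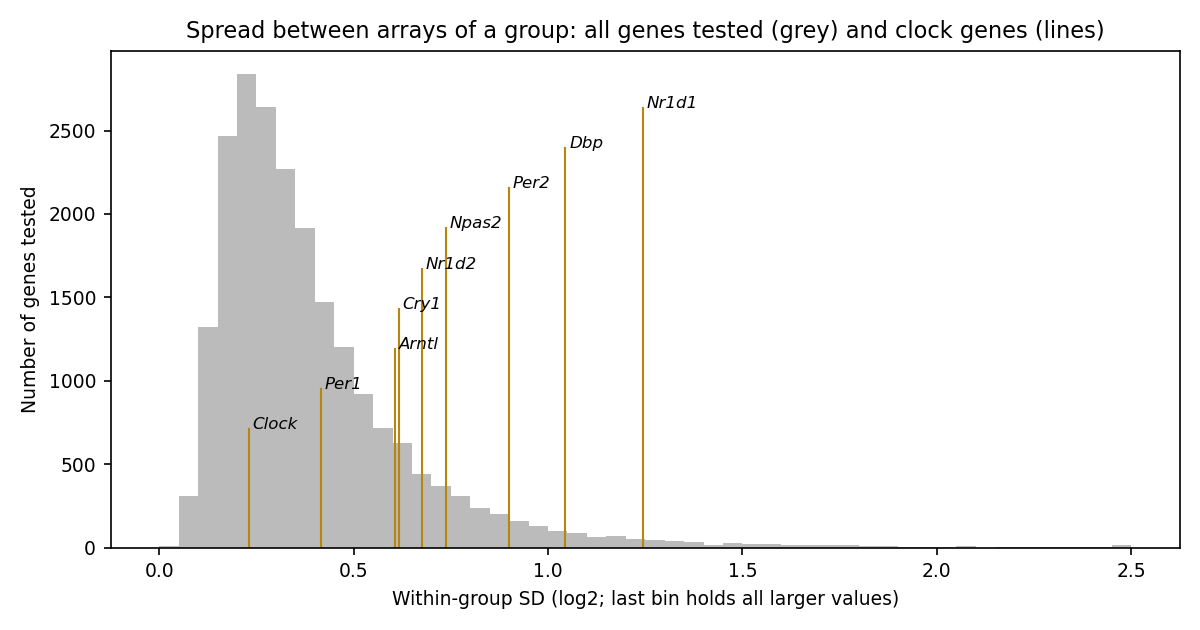
Number of tested genes by within-group SD in log2 units (grey bars), with a line at the SD of each of the 9 tested clock genes; line heights differ only to keep names apart. Clock lies below the median of 0.32, Per1 lies at 0.41, and Nr1d1 lies at 1.24 in the right tail.

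The array-to-array pattern was shared by several genes of the clock. Each gene's 8 values were taken as deviations from their own group means, and all other genes were ranked by the root mean square difference from the deviations of Nr1d1. This measure was chosen after the values had been seen and serves as a description. It weighs the size of the deviations as well as their signs, so a gene of small spread ranks far from Nr1d1 even with the same signs. Of 21305 genes, Tef, a PAR bZIP relative of Dbp, ranked 2nd (0.36 log2 units), Dbp ranked 12th (0.52) and Nr1d2 ranked 15th (0.53). The rank of Nr1d2 is that of its brighter probe, whose transcript is uncertain. Ciart, a repressor of the CLOCK and BMAL1 pair, ranked 39th (0.60), although none of its saline values was well above background, and Bhlhe40, an E-box repressor, ranked 48th (0.61). Among the 20 nearest genes, 2 were clock genes of the set and 1 was another clock gene, so most of the nearest genes lay outside the clock. Per2 ranked 297th and Per1 329th, and the 8 deviations of Per1 had the same signs as those of Nr1d1 at smaller size.

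Tef gives the clearest view of that pattern next to Nr1d1. It read 2.94, 2.63, 4.53 and 4.18 in doxycycline ilea and 2.57, 4.21, 4.06 and 1.94 in saline ilea. Doxycycline 3 and 4 and saline 2 and 3 were again the high arrays, and the group difference was 0.38 (SE 0.61, limma adjusted p = 0.710). The activators ran opposite to Nr1d1 on most arrays, by unequal amounts. Clock had the opposite sign to Nr1d1 on every array, at small size (-0.33 to 0.39, rank 16268). Arntl was opposite on all but doxycycline 4, and Npas2 on all but saline 1. Arntl and Npas2 were among the genes farthest from Nr1d1 (ranks 20278 and 20853), with Npas2 high on doxycycline 1 and Arntl low on saline 2, but doxycycline 1, 2 and 4 hardly differed in Arntl.

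Blood genes moved over the arrays in a similar way. A rule named the 3 tested genes nearest to Dbp over the 8 arrays, each gene centred on its saline mean. It left out the clock genes of the set and names that are only clone, transcript or locus identifiers, so 14280 genes were compared. The nearest were the haemoglobin genes Hba-a1, Hbb-b2 and Hbb-b1, with root mean square differences of 0.44, 0.45 and 0.47 log2 units. Hba-a1 read 1.86, 2.27, 2.96 and 2.81 in doxycycline ilea and 3.35, 5.18, 4.66 and 2.84 in saline ilea, a log2 difference of -1.53 (limma adjusted p = 0.0771). Saline 2 and 3 were thus the highest arrays for haemoglobin as well as for Dbp. In the ranking by deviations from the group means, the 3 haemoglobin genes stood 21st, 32nd and 44th nearest to Nr1d1, and Alas2, which starts haem synthesis in red cell precursors, stood 70th. Alas2 was lower with doxycycline, by 2.21 on the log2 scale (log2 difference -2.21, limma adjusted p = 0.0127). The part of blood content in the clock gene values was not tested. In whole tissue, fewer cells of a type and less RNA per cell cannot be told apart.

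**Figure D4:**
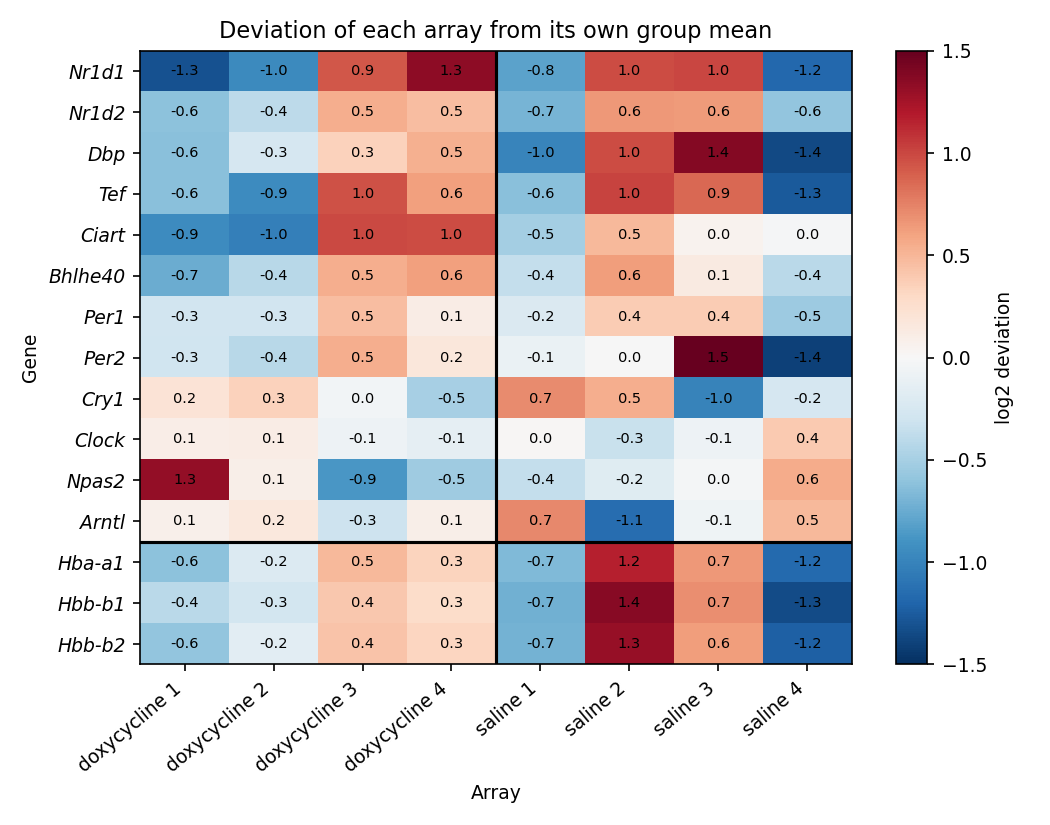
Deviation of each array from its own group mean, in log2 units, for 12 clock genes and 3 haemoglobin genes (below the line), with the doxycycline arrays to the left of the saline arrays. Nr1d1 runs from -1.31 on doxycycline 1 to 1.34 on doxycycline 4 and from -1.18 on saline 4 to 1.00 on saline 3, and Nr1d2, Dbp, Tef and the haemoglobin genes have the same signs.

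For Arntl, the same rule named Lrrc4b and Cmtm4 as nearest, with root mean square differences of 0.22 and 0.23 log2 units over the 8 arrays. Neither passed limma's threshold (adjusted p = 0.604 for Lrrc4b and 0.627 for Cmtm4).

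Cell type markers differed between the groups as well. The summed level of 6 tested goblet cell genes was 458 to 721 in doxycycline ilea and 1133 to 1606 in saline ilea, with 5 of 6 genes lower by limma's test. That of 6 crypt stem cell genes was 48.0 to 57.2 with doxycycline and 66.4 to 99.7 with saline, with 4 of 6 lower. The sums of 6 smooth muscle genes (340 to 547 with doxycycline, 321 to 778 with saline) and 9 leukocyte genes (67.1 to 105 with doxycycline, 38.6 to 79.6 with saline) overlapped between the groups, although 2 of the 9 leukocyte genes were higher. By limma, 0 of the 12 enterocyte and 0 of the 6 smooth muscle genes passed the threshold, with 3 and 0 at an unadjusted p under 0.05. Of all 21362 genes tested, 6701 had an unadjusted p under 0.05. Per1 rose where the goblet and stem cell sums were lower, and the part of cell composition in its rise was not tested. Clca3, a listed goblet gene, was not analysed here.

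Of 28 other clock genes found on the array, 26 were tested, and 2 were higher and 2 lower with doxycycline. Their groups did not overlap for 6 genes. Both counts are near the shares of all genes tested, 13.8% past the threshold and 21.9% without overlap. Their median log2 difference was 0.21. The 10 tested relatives of the core genes held 1 rise (Ciart) and 1 fall. Ciart met the filter through the 4 doxycycline arrays alone, with 0 saline arrays well above background. Counting it as a rise thus depends on saline readings below the detection limit. The 13 tested modifiers and cofactors held 1 fall (Csnk1d, by its brighter probe alone). The other kept probe of Csnk1d was higher. The 3 tested outputs held 1 rise (Nampt).

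Ciart read -3.21, -3.29, -1.28 and -1.29 in doxycycline ilea, against -5.32, -4.33, -4.76 and -4.83 in saline ilea, where it was not well above background on any array. By the group means it was at least 1.47-fold higher with doxycycline. The limma adjusted p of 0.0141 belongs to the measured means, -2.27 with doxycycline and -4.81 with saline, and not to this bound. The bound sets the doxycycline mean against the lowest saline signal that counts as well above background, on average -2.83. Doxycycline 1 and 2 lay below that level. Doxycycline 3 and 4 were its highest arrays, the same 2 as for Nr1d1. The call was lost with a common floor (adjusted p = 0.296) and without saline 2 and 4 together (adjusted p = 0.0526). The array design places this probe on chromosome 10, whereas RefSeq places Ciart on chromosome 3, so the probe's identity is uncertain.

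Nampt, the rate-limiting enzyme of NAD salvage and a target of the clock, read 3.41, 3.83, 2.74 and 2.92 in doxycycline ilea and 2.07, 2.02, 2.06 and 2.13 in saline ilea. The saline arrays were nearly equal, and all 4 doxycycline arrays lay above them. The rise was 2.23-fold (95% interval 1.54 to 3.22, limma adjusted p = 0.0154), and its call was lost only without saline 2 and 4 together (adjusted p = 0.0680).

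Csnk1d, a casein kinase that phosphorylates period proteins, had probes that disagreed. The brighter probe was lower with doxycycline, with a log2 difference of -0.62 (SE 0.17, limma adjusted p = 0.0398), and the other kept probe was higher, with a difference of 0.85 (adjusted p = 0.0333 in the fit over all kept probes). No direction for the gene follows from these values. Its relative Csnk1e (log2 difference 0.60, limma adjusted p = 0.0554) and Timeless (0.62, adjusted p = 0.0561) missed the threshold in the fit over genes. In the fit over all kept probes, a second, dimmer probe of each was higher with doxycycline, by 0.86 for Csnk1e (adjusted p = 0.0434) and by 0.70 for Timeless (adjusted p = 0.0342).

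The stretch before the start of transcription is shown for the gene that rose (Per1). It is also shown for Nr1d1, Nr1d2 and Dbp, the 3 clock genes of the set with a shared array pattern. Tef, which has the same high arrays, and Ciart follow. Ciart shares the high doxycycline arrays, but its saline values were not well above background. The sequences are the 250 bases upstream of a RefSeq start, 5′ to 3′ on the gene's strand, in build GRCm38.p6. Capitals mark matches, on either strand, to the E-box CACGTG, the related E-prime box CACGTT, the half-site AGGTCA bound by ROR and REV-ERB receptors, the D-box (TTATGTAA or TTACGTAA) bound by DBP and TEF, and the cAMP element TGACGTCA. The positions are chr11:69098699-69098948 (plus strand) for Per1, chr11:98775378-98775627 (minus strand) for Nr1d1 and chr14:18239107-18239356 (minus strand) for Nr1d2. They are chr7:45704997-45705246 (plus strand) for Dbp, chr15:81802423-81802672 (plus strand) for Tef and chr3:95882229-95882478 (minus strand) for Ciart. Per1 and Tef each have a second start in the table, not printed here.
Per1: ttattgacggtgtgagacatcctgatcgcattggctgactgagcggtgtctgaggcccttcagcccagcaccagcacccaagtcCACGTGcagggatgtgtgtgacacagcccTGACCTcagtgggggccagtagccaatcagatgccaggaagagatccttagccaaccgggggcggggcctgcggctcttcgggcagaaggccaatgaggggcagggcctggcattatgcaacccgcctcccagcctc
Nr1d1: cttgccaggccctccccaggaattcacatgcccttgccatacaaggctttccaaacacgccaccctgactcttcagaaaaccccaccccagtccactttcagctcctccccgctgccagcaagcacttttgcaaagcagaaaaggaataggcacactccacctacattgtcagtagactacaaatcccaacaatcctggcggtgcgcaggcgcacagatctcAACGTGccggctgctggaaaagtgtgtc
Nr1d2: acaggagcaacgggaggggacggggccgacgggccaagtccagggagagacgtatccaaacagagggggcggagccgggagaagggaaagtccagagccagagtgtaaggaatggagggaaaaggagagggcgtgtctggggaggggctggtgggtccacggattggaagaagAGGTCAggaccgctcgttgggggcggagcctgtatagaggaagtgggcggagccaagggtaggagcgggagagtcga
Dbp: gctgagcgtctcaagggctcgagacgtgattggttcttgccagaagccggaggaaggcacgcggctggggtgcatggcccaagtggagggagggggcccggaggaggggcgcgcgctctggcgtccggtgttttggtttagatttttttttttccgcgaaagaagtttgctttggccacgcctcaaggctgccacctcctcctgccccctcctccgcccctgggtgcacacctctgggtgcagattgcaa
Tef: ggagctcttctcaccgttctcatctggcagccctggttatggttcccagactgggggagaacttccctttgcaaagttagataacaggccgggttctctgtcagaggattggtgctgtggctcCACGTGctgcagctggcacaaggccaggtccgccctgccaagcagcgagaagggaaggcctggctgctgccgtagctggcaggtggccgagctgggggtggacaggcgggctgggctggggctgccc
Ciart: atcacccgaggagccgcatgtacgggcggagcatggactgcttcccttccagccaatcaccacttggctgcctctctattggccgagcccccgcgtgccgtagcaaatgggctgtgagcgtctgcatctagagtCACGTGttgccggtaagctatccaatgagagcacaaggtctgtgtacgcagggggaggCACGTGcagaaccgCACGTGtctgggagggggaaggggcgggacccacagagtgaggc

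In the full windows of 300 bases (250 before to 50 after the start), the E-box occurred in 7.15% of all 32851 promoters in the table. Of the 10 clock genes, 9 had a promoter there, 13 promoters in all, and the E-box was found in 2 of these promoters, 1 of Per1 and 1 of Cry1. Among the other clock genes it was found in 5 of 25 promoters, which belong to 4 of 19 genes. Ciart held 3 copies and both Tef promoters held 1 each. The E-prime box was found in 1 promoter each of Cry1 and Nr1d1 (4.68% of all promoters), and the half-site AGGTCA in 1 promoter each of Arntl, Clock, Per1 and Nr1d2 (16.3%). The D-box occurred in Per3 alone of the 9 (1.06%). The cAMP element (1.79%) and the glucocorticoid half-site AGAACA (19.0%) were found in 0 of the 9. Within this window Dbp held none of the listed motifs. A match is a description of the letters and says nothing on binding here.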

How the data were processed

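The deposited arrays carry 1 colour. Their intensity values (linear scale) came from Agilent Feature Extraction, version 10.7.3.1 by both the submitters' processing notes and the files. Per the file headers, spatial and multiplicative detrending were on, and the subtracted background is the fitted spatial surface. The authors' deposited value table has log2 numbers, each column equal to log2 processed intensity less a constant, so scale and direction are known and genes were not centred. Its column medians were -3.77, -3.92, -3.83 and -3.81 (doxycycline 1 to 4) and -3.97, -3.70, -3.79 and -3.86 (saline 1 to 4). It served as an alternative.

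Control spots and spots with outlier marks were left out, no probe spot was saturated, and spots of a probe were averaged on the log2 scale. Each array was scaled by its 75th percentile. A gene was its kept probe with the highest mean. The group comparison used lmFit and eBayes of limma (3.58.1, under R 4.3.3), two-sided, with Benjamini-Hochberg adjustment over 21362 genes, checked on simulated data. The fit over probes used the 28626 kept probes. The number of arrays limits precision. Named genes are all members, other listed clock genes past the threshold, and the 3 nearest genes of Dbp and Arntl, except that some are not reported here. Tef, Bhlhe40, Timeless, Csnk1e, Alas2, Apoa4 and Lct were named after their values were seen. The members and lists were chosen with earlier results of these data known. Sequences are from the array files and RefSeq.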

Additional observations from a re-analysis of the deposited data

Results flagged for a closer look

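Among the groups of 4 arrays examined (116 groups, for the 13 probes of the 10 clock genes, the kept probes of other clock genes and the marker sums), 8 held an array far from the other 3. Chance alone marks about 1 group in 20. None of the 8 was a probe of the 10 clock genes. The summed level of the leukocyte genes was 105 on doxycycline 4, against 67.1 to 73.4 on the other doxycycline arrays. The summed level of the enterocyte genes was 716 on saline 4, against 1138 to 1177 on the other saline arrays.

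Of the other clock genes, 6 had such a probe, and saline 4 was the distant array for 4 of them. Timeless read 1.90 on saline 4, against 1.26 to 1.37 on the other saline arrays. A dimmer probe of Csnk1a1 read 4.37 on saline 4, against 3.61 to 3.73 on the others. Usp2 read 3.09 on saline 4, against at most 2.58 on the others. Fbxl21 read -3.88 on saline 4, against -2.05 to -1.80. Fbxw11 read 4.56 on saline 3, against 4.75 to 4.78 on the other saline arrays. Gsk3b read 3.40 on doxycycline 2, against 4.07 to 4.16 on the other doxycycline arrays. Without saline 4 the Per1 difference was 1.57 (limma adjusted p = 0.00870), and without doxycycline 4 it was 1.71 (adjusted p = 0.0172).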

How the results depend on the processing

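Per1 kept its rise under all 19 alternatives, with log2 differences of 1.57 to 1.88 and limma adjusted p of 8.63e-04 to 0.0221, and 1 clock gene was higher under each. The count of lower clock genes, 0, became 1 (Npas2, -1.09) without doxycycline 1, a range of 0 to 1 over single arrays left out, and Npas2 ranged from -1.09 to -0.36 there. Nr1d2 changed sign without single arrays (-0.088 to 0.36). So did Per2 (-0.32 to 0.65), which was also negative with normexp background (-0.13), a common floor (-0.14), array weights (-0.25) and without saline 2 and 4 together (-0.56).

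Other clock genes higher numbered 4 with normexp background, quantile normalization, no filter, averaged probes and array weights, and 1 with a common floor and without saline 2 and 4 together (2 to 4 without single arrays). Those lower numbered 1 with median scaling, a common floor and the replicate block, and 0 with averaged probes and without saline 2 and 4 together (0 to 2 without single arrays). With averaged probes Csnk1d turned to 0.12. Over all genes, 648 to 1541 were higher and 729 to 1870 lower without single arrays, 2885 and 3369 with array weights, 11809 were lower with no filter, and 1027 lower without saline 2 and 4 together. The cause of these shifts was not tested.

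Replicate numbers occur in both groups, but deviations from group means correlated at only 0.0060, -0.044, 0.11 and 0.013 between arrays of the same number, so the numbers were not taken to pair the samples. With the number as a replicate block, 787 genes were higher and 905 lower, and the Per1 difference was 1.75 (limma adjusted p = 0.0178). Dim probes (Per3, the second Per1 probe, and Cry1, Per2 and Ciart in saline ilea) limit what can be read. Fewer probes rose above background on saline arrays, where the lowest signal that counted as such was higher.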
